A study of Mus musculus with 12 samples.

Results

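Described here are 10 genes of the connective tissue that surrounds the developing inner ear, the periotic mesenchyme, followed on 12 mouse genome arrays. They were chosen by name, and every probe set annotated to them was read, which gave 17 probe sets for 10 of the 18194 genes named on the array. Of the 10 genes, 6 had several probe sets and 4 had 1, and all 17 were listed with a single gene. Lum, Dcn and Postn code for extracellular matrix proteins, Pdgfra and Pdgfrb for growth factor receptors, and Twist1, Tbx18, Pou3f4, Foxc1 and Foxc2 for transcription factors. Levels are log2 values from RMA, so a difference of 1 is a doubling, and levels of different probe sets were not compared with each other.

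The study profiled otic vesicles, the epithelial sacs that form the inner ear, and 2B1, a conditionally immortal line derived from them. Its title names as the aim a search for transcriptional targets of Dlx5, a homeobox factor of the early ear. Each of its 6 groups held 2 arrays. The vesicle groups were wild type and labelled Dlx5-null at embryonic day 10 (E10), and wild type and labelled Dlx5-null at E10.5. Per the labels, each vesicle replicate was a separate pool of 4 to 8 vesicles, from embryos that were staged by counting somites. Dispase at 1 mg/ml was used on the vesicles to help strip off adhering mesenchyme, so transcripts of the 10 genes were read here in tissue from which that cell layer was meant to be taken away. The null allele is described no further in the labels. The remaining groups were 2B1 cells transiently transfected either with a vector carrying GFP alone or with Dlx5, as independent cultures. All 2B1 cultures were expanded with gamma-interferon at a permissive temperature and then kept for 4 days at a higher temperature without it. Vesicle and 2B1 arrays appear to have been normalized separately (array means of 6.10 to 6.11 and of 5.76 to 5.82), so no level was set across them.

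Dlx5 itself went against the labels. Its probe set read 6.20 and 6.30 in wild type, with 7.27 and 8.02 in labelled null at E10, and 6.12 and 6.11 in wild type, with 7.97 and 7.97 in labelled null at E10.5. Since where this probe set lies relative to the deleted part is not given in the sources used here, the null groups are called labelled null throughout, and the sign of each genotype difference rests on the labels. In 2B1 cells the same probe set read 5.14 and 4.80 with Dlx5 and 4.66 and 4.79 with the vector, groups that all but touch. Oc90, a matrix protein gene that marks otic epithelium, read 10.75 to 13.28 in the vesicles, and 5.67 to 6.17 on the separately normalized 2B1 arrays, where no detection call was at hand. Some arrays stood apart. Over all probe sets the standard deviation was 2.32 and 2.33 on both E10 replicate 1 arrays and 2.38 on replicate 2 of the labelled null at E10.5, against 2.45 to 2.47 on the other vesicle arrays. It was 2.19 on vector replicate 1, against 2.29 to 2.31 on the other 2B1 arrays.

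The periotic mesenchyme comes from cranial mesoderm and neural crest, wraps the otic vesicle, exchanges signals with its epithelium and later forms the cartilage capsule, the fibrous layers and the stroma of the inner ear. Its cells lay down collagens and small leucine-rich proteoglycans, which bind collagen fibrils and set their thickness and spacing. They carry PDGF receptors, tyrosine kinases that drive the growth and migration of mesenchymal cells. Pou3f4, Tbx18, Twist1 and the Foxc genes act as transcription factors of such cells, and Pou3f4 and Tbx18 are known for their role in the mesenchyme of the ear.

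Promoter sequence from RefSeq (GRCm38.p6, 250 bases before to 50 after each start) was held for 6 of the 10 genes, with 7 starts in all. The starts of Postn are shown because Postn was the matrix gene with a promoter in the table that rose between stages, Tbx18 because it was the gene with the lowest stage difference, and Pdgfra because it had the widest gap between replicate arrays at E10. Lum, Dcn, Foxc2 and Pdgfrb had no entry. Capitals mark 2 motifs. One is the E-box, CANNTG, the letters read by Twist1 and other basic helix-loop-helix factors, and the other is the TATA box, TATAAA. They were searched on both strands and share no letters in these windows. The first Postn start lies at chr3:54359017-54359316 and the second at chr3:54360857-54361156, both on the plus strand. The Pdgfra start lies at chr5:75152001-75152300 on the plus strand and the Tbx18 start at chr9:87731211-87731510 on the minus strand.
Postn, first start: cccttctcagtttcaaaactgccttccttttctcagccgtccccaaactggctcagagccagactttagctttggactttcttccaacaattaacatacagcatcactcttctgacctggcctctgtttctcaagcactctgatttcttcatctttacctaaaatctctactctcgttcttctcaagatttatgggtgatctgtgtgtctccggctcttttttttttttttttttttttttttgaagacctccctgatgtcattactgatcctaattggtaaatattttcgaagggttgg
Postn, second start: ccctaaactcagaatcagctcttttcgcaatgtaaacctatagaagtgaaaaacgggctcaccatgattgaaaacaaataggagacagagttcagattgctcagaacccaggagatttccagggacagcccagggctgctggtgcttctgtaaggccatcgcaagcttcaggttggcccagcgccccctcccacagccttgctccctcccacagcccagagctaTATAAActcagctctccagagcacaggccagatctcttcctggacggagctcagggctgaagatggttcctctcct
Pdgfra: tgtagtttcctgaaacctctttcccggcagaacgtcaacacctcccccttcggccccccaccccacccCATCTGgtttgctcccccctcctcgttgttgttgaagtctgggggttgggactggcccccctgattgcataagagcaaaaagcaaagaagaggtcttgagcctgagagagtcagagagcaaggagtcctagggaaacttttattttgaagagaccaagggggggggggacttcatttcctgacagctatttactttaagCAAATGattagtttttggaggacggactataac
Tbx18: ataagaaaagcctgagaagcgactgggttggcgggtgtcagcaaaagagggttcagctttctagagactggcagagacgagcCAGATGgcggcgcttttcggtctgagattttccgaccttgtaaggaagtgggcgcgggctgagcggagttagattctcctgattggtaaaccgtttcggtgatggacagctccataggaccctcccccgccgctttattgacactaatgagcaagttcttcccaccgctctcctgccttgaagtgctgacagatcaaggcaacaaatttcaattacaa
The second Postn start held 1 TATA box and the first held none, and neither held an E-box. Pdgfra held 2 E-boxes and Tbx18 held 1. Of the starts not printed, Twist1 held 1 TATA box and no E-box, and Foxc1 and Pou3f4 held neither motif. Among all 32851 promoters of the same length in the table, 72.3% held an E-box and 13.6% a TATA box. These are matches of letters in a window and not measured binding sites.

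Between E10 and E10.5 the 3 matrix genes rose and no receptor or transcription factor among the 10 passed the test. Lum rose 4.64-fold, Dcn 2.90-fold and Postn 1.72-fold over both genotypes. Of the 10 genes 8 were bright enough to be tested in vesicles. Foxc1, with a mean level of 4.98, and Foxc2, at 3.71, fell among the dimmest 25% of genes, under a mean level of 5.19. Differences were tested with limma over 13645 genes, at an adjusted p under 0.05 (Benjamini-Hochberg). With 3 of 8 called, all 3 higher, the background in the same comparison was 15.8% of all genes called and 9.28% called higher. The median difference of the 8 genes was 0.61, against 0.045 over all genes tested.

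**Figure D1:**
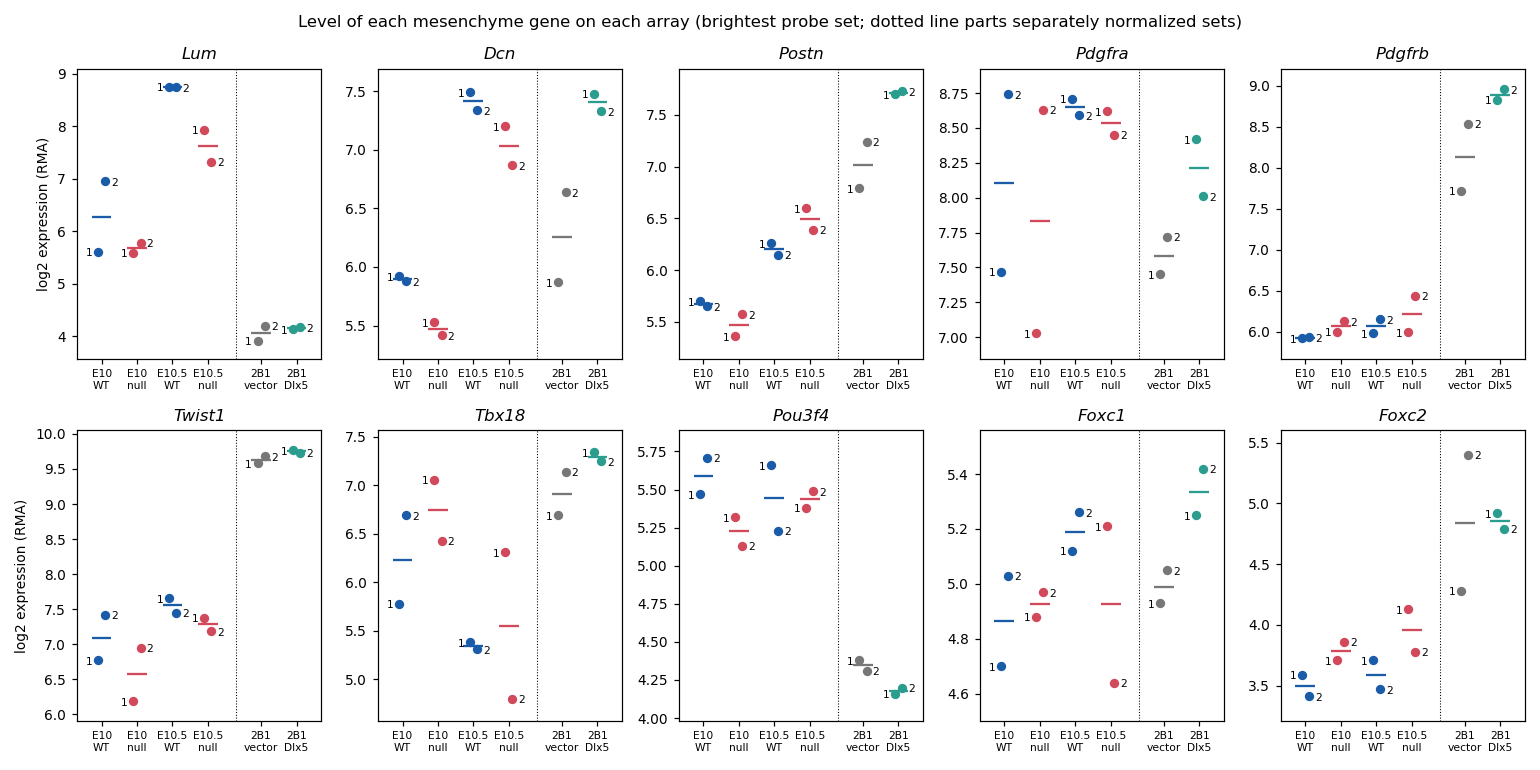
Log2 level of the brightest probe set of each gene (vertical axis, its own range in each panel) on each of the 12 arrays, with a point per array numbered by replicate and a bar at the group mean; the dotted line parts the vesicle arrays from the separately normalized 2B1 arrays. The E10.5 points of Lum, Dcn and Postn lie above all their E10 points, and the E10 replicates of Pdgfra are 1.27 and 1.60 apart.

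Lum codes for lumican, a keratan sulfate proteoglycan of collagen-rich stroma. It read 5.61 and 6.95 in wild type, with 5.59 and 5.78 in labelled null at E10, then 8.76 and 8.75 in wild type, with 7.94 and 7.33 in labelled null at E10.5. Every E10.5 array lay above every E10 array, and 1 of the E10 arrays, wild-type replicate 2, stood well above the other E10 arrays. The difference was 2.21 (SE 0.28, 4 against 4 arrays, limma adjusted p = 0.00474, 95% interval 1.56 to 2.86), higher than for any other of the 8 genes. Within wild type Lum rose by 2.48 (SE 0.41, limma adjusted p = 0.0410, 2 against 2 arrays). Within the labelled null the difference was 1.95 (SE 0.41, limma adjusted p = 0.113, 2 against 2 arrays) and did not pass.

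Dcn, the neighbour of Lum on its chromosome, codes for decorin, a proteoglycan that binds collagen fibrils and TGF-beta. Its main probe set, 1449368_at, read 5.92 and 5.88 in wild type, with 5.53 and 5.42 in labelled null at E10, then 7.49 and 7.34 in wild type, with 7.20 and 6.87 in labelled null at E10.5. The stages did not overlap, and replicates lay within 0.33 of each other in every vesicle group. The difference was 1.54 (SE 0.11, 4 against 4 arrays, limma adjusted p = 0.00274, 95% interval 1.28 to 1.79). Dcn rose by 1.52 within wild type (SE 0.17, limma adjusted p = 0.0261, 2 against 2 arrays), and the difference within the labelled null was 1.56 (SE 0.17, limma adjusted p = 0.0643, 2 against 2 arrays). A dim second probe set of Dcn, 1441506_at, did not follow. It read between 4.11 and 4.60 on all 8 vesicle arrays, with a stage difference of 0.065.

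Postn codes for periostin, a matrix protein of collagen-rich tissues that binds integrins. It read 5.70 and 5.65 in wild type, with 5.36 and 5.57 in labelled null at E10, then 6.26 and 6.15 in wild type, with 6.60 and 6.39 in labelled null at E10.5. All E10.5 arrays were above all E10 arrays. The difference was 0.78 (SE 0.14, 4 against 4 arrays, limma adjusted p = 0.0102, 95% interval 0.47 to 1.09). Within wild type it was 0.53 (SE 0.16, limma adjusted p = 0.124) and within the labelled null 1.03 (SE 0.16, limma adjusted p = 0.0737), each with 2 against 2 arrays and neither past the threshold.

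The calls of Lum, Dcn and Postn over both genotypes held whichever single vesicle array was left out, with differences of 1.89 to 2.43, 1.47 to 1.60 and 0.69 to 0.85. They also held without both E10 replicate 1 arrays, at 1.83, 1.58 and 0.74. In 4 against 4 arrays, 15.3% of all genes did not overlap in the higher direction, as these 3 did. Within wild type, 2 of 8 genes were called, both higher, beside 2.17% of all genes called and 1.17% called higher. These calls were lost without E10 wild-type replicate 1, either E10.5 wild-type array or either E10.5 labelled-null array. Within the labelled null 0 of 8 were called, beside 0.022% of all genes, and 3 of the 8 (Lum, Dcn and Postn) had an unadjusted limma p under 0.05 in the higher direction, beside 7.48% of all genes. Because vesicles were measured in bulk, more mesenchymal cells and more RNA per cell cannot be told apart in any of these comparisons.

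Pdgfra, a receptor for PDGF ligands that marks fibroblast-like mesenchyme, had the widest gap between replicates of any member at E10. Its main vesicle probe set, 1421917_at, read 7.47 and 8.74 in wild type, with 7.03 and 8.63 in labelled null at E10, then 8.71 and 8.59 in wild type, with 8.62 and 8.45 in labelled null at E10.5. Both low readings were on the E10 replicate 1 arrays, and the other 6 arrays lay between 8.45 and 8.74. The stage difference was 0.63 (SE 0.36, 4 against 4 arrays, limma adjusted p = 0.262). Without both E10 replicate 1 arrays it was -0.09, the opposite sign. The other Pdgfra probe sets gave stage differences of 0.41 (1438946_at, which read 5.40 to 6.43) and 0.40 (1421916_at, which read 5.06 to 5.73). Neither passed when every probe set was tested singly (limma adjusted p = 0.152 and 0.0645). On 1421916_at the stages did not overlap, at 5.06 to 5.49 at E10 and 5.61 to 5.73 at E10.5. Among all genes 15.3% did not overlap in that direction.

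Pdgfrb, the PDGF receptor of pericytes and other perivascular mesenchyme, gave different pictures on its probe sets. Set 1417148_at read 5.92 and 5.93 in wild type, with 6.00 and 6.13 in labelled null at E10, then 5.98 and 6.15 in wild type, with 5.99 and 6.44 in labelled null at E10.5. The stages overlapped, with a difference of 0.15 (SE 0.12, 4 against 4 arrays, limma adjusted p = 0.440). Set 1436970_a_at read 4.11 and 4.46 in wild type, with 4.30 and 4.38 in labelled null at E10, then 4.88 and 5.60 in wild type, with 4.48 and 5.28 in labelled null at E10.5. Its stages did not overlap, and with every probe set tested singly the difference was 0.75 (SE 0.22, 4 against 4 arrays, limma adjusted p = 0.0602), short of the threshold.

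Among the transcription factors, Twist1, a basic helix-loop-helix factor of cranial mesenchyme, read 6.77 and 7.42 in wild type, with 6.19 and 6.95 in labelled null at E10, then 7.66 and 7.45 in wild type, with 7.38 and 7.19 in labelled null at E10.5. Replicate 1 was the lower one in both E10 groups. The stage difference was 0.59 (SE 0.20, 4 against 4 arrays, limma adjusted p = 0.0833). With 1 array left out it passed only when this was E10 wild-type replicate 2 (limma adjusted p = 0.0414) or E10 labelled-null replicate 2 (limma adjusted p = 0.0347), and it was 0.24 without both E10 replicate 1 arrays.

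Tbx18, a T-box factor of ear and heart mesenchyme, was the gene with the lowest stage difference. Its main probe set, 1429974_at, read 5.78 and 6.69 in wild type, with 7.06 and 6.43 in labelled null at E10, then 5.38 and 5.31 in wild type, with 6.31 and 4.80 in labelled null at E10.5. The stages overlapped through replicate 1 of the labelled null at E10.5, which lay above wild-type replicate 1 at E10. The difference was -1.04 (SE 0.34, 4 against 4 arrays, limma adjusted p = 0.0691, 95% interval -1.81 to -0.27), which did not pass, although it did with an intensity trend in limma's variance prior. The second Tbx18 probe set, 1449871_at, read 3.12 to 3.69 on all 8 arrays, with a stage difference of -0.03.

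Pou3f4, a POU homeobox factor of the otic mesenchyme whose loss causes deafness, read 5.47 and 5.71 in wild type, with 5.32 and 5.13 in labelled null at E10, then 5.66 and 5.23 in wild type, with 5.38 and 5.49 in labelled null at E10.5. The stages overlapped over both genotypes, and the stage difference was 0.03 (SE 0.14, 4 against 4 arrays, limma adjusted p = 0.893, 95% interval -0.29 to 0.36). At E10 both labelled-null arrays lay under both wild-type arrays (difference -0.365), as was so for 8.93% of all genes. Within the labelled null both E10.5 arrays lay above both E10 arrays (difference 0.21), as was so for 25.7% of all genes. Neither difference was called. Its second probe set read 4.24 to 4.84, with a stage difference of 0.38.

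Foxc1 and Foxc2, forkhead factors of head mesenchyme, were too dim in vesicles to be tested. Foxc1 (1419486_at) read 4.70 and 5.03 in wild type, with 4.88 and 4.97 in labelled null at E10, then 5.12 and 5.26 in wild type, with 5.21 and 4.64 in labelled null at E10.5. Its second probe set read 4.43 to 4.94 on the 8 arrays. Foxc2 read 3.59 and 3.41 in wild type, with 3.71 and 3.86 in labelled null at E10, then 3.71 and 3.47 in wild type, with 4.13 and 3.78 in labelled null at E10.5. Stages overlapped on each of these probe sets, with stage differences of 0.16, 0.10 and 0.13. For Foxc2 both labelled-null arrays lay above both wild-type arrays within each stage, by 0.29 at E10 and 0.37 at E10.5 in the mean, and these values were not tested. Among all genes tested, 8.52% separated in that direction at E10 and 16.9% at E10.5.

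**Figure D2:**
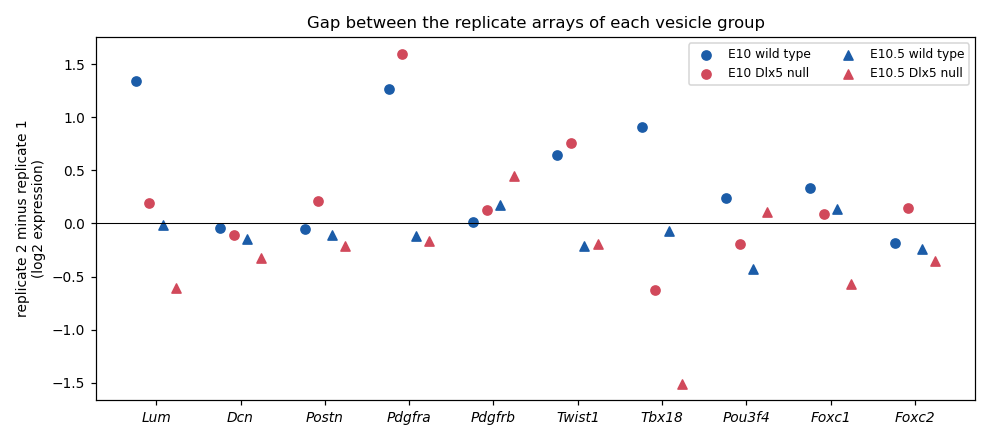
Difference in log2 level between replicate 2 and replicate 1 of each vesicle group (vertical axis) for the 10 genes (horizontal axis), with circles for E10 and triangles for E10.5. Pdgfra and Twist1 were lower on replicate 1 in both E10 groups, and Tbx18 differed by -1.51 between the labelled-null arrays at E10.5.

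How far replicates disagreed differed sharply between the genes. In E10 wild type, replicate 2 exceeded replicate 1 by 1.34 for Lum, 1.27 for Pdgfra, 0.91 for Tbx18 and 0.65 for Twist1, where the median absolute gap over all genes was 0.37. Gaps as large as that of Pdgfra were seen in 1.63% of genes there. In the labelled null at E10 the Pdgfra gap was 1.60, a size reached by 0.696% of genes, and the Twist1 gap was 0.76. Dcn and Postn, in contrast, had gaps of -0.04 and -0.05 in E10 wild type and of -0.11 and 0.21 in E10 labelled null. Between the E10.5 wild-type arrays the widest gap of the 10 genes was that of Pou3f4, at -0.43, a size that 2.46% of genes reached. The median absolute gap over all genes was 0.09 in that group. The labelled-null arrays at E10.5 differed by -1.51 for Tbx18, a size that 0.0293% of genes reached, and by -0.61 for Lum. Labels give each vesicle array a separate pool, and whether these gaps come from the pools or from the arrays was not tested.

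The comparison of labelled-null with wild-type vesicles asks which genes depend on Dlx5. None of the 8 tested genes was called at either stage or over both. Lum and Dcn had the lowest unadjusted p-values over both stages, both with lower levels in the labelled null. Over both stages 0 of 8 were called, beside 0.022% of all genes, 3 in number. An unadjusted limma p under 0.05 in the lower direction was met by 2 of 8 genes and by 2.84% of all genes. The median difference of the 8 was -0.19, against -0.01 over all genes, and 5 of the 8 were lower.

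Dcn was lower by 0.40 in the labelled null over both stages (difference -0.40, SE 0.11, 4 against 4 arrays, limma adjusted p = 0.732, unadjusted 0.00608), a 1.32-fold difference. At E10 it read 5.53 and 5.42 against 5.92 and 5.88, and at E10.5 7.20 and 6.87 against 7.49 and 7.34. At each stage both labelled-null arrays lay under both wild-type arrays, with differences of -0.43 (SE 0.17) and -0.38 (SE 0.17). Such a separation in the lower direction was met by 8.93% of all genes at E10 and 28.2% at E10.5. The dim second probe set of Dcn, 1441506_at, had a difference of -0.20 at each stage and was not tested.

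For Lum the difference over both stages was -0.86 (SE 0.28, 4 against 4 arrays, limma adjusted p = 0.949, unadjusted 0.0156). At E10.5 the labelled-null arrays, 7.94 and 7.33, lay under the wild-type arrays, 8.76 and 8.75, by 1.12 in the mean (difference -1.12, SE 0.41, limma unadjusted p = 0.0293, adjusted 1.0, 2 against 2 arrays). Groups not overlapping in the lower direction were found for 28.2% of all genes at E10.5. At E10 the groups of Lum overlapped. Their difference of -0.60 rested on wild-type replicate 2, at 6.95, and without it was 0.08.

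For the rest, differences over both stages were -0.40 for Twist1, -0.20 for Pdgfra and -0.19 for Pou3f4, and 0.04 for Postn, 0.15 for Pdgfrb and 0.36 for Tbx18. All 6 had limma adjusted p-values of 0.999. At E10 alone 0 of 8 were called, beside 0% of all genes, where 451 genes had an unadjusted limma p under 0.05. Dcn was the 1 of 8 with such a p in the lower direction (unadjusted 0.0379), beside 1.74% of all genes. At E10.5 alone 0 of 8 were called, beside 0.00733% of all genes, which is 1 gene, and 403 had an unadjusted p under 0.05. Lum was the 1 of 8 with such a p in the lower direction, beside 2.18% of all genes.

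Marker levels of other cell types also differed between the labelled-null and wild-type groups, although no such gene was called. At E10.5 all 6 red blood cell genes had higher means in the labelled null, with a median difference of 1.32. Of these, 4 (Hemgn, Alas2, Hba-x and Slc4a1) had an unadjusted limma p under 0.05 in that direction, beside 0.777% of all genes. Their summed log2 level was 67.3 to 67.5 in the labelled null and 60.0 to 60.1 in wild type at E10.5, whereas at E10 the groups overlapped, at 47.5 to 53.7 and 47.6 to 53.4. All 7 tested endothelial genes had lower means in the labelled null at E10.5 (median -0.14, against -0.04 over all genes). Of these, 1 had an unadjusted limma p under 0.05, beside 2.18% of all genes in the lower direction. The summed level of the 9 on the array was 51.8 to 52.8 against 54.2 on both wild-type arrays. Over all genes at E10.5, 58.2% had lower means in the labelled null and 41.1% higher. Groups did not overlap in the lower direction for 28.2%. All 7 otic neuron genes had higher means in the labelled null over both stages (median 0.35). Of these, 1 had an unadjusted limma p under 0.05 in that direction, as had 173 of all 13645 genes. At E10.5 alone 4 were higher and 2 lower, with sums of 62.0 to 62.7 against 59.9 to 60.4. At E10 alone 6 were higher and 1 lower (median 0.58), with overlapping sums of 53.4 to 55.9 against 49.3 to 53.5. There 3 of the 7 had an unadjusted limma p under 0.05 in the higher direction, as had 214 of all 13645 genes. The otic epithelium list summed to 82.2 to 83.8 in the labelled null and 84.8 to 85.0 in wild type at E10.5. The part of these lists in the lower levels of Lum and Dcn was not tested.

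Whether the labelled-null difference itself changed between stages was tested as an interaction. Of the 8 genes 0 were called, beside 0% of all genes, where 269 genes had an unadjusted limma p under 0.05. Postn was the gene whose groups went in opposite directions. Groups separated in the lower direction for 8.93% of all genes at E10, and in the higher direction for 16.9% at E10.5. For Postn both labelled-null arrays lay under both wild-type arrays at E10 (5.36 and 5.57 against 5.70 and 5.65). They lay above them at E10.5 (6.60 and 6.39 against 6.26 and 6.15). Its interaction was 0.50 (SE 0.22, limma unadjusted p = 0.0599, adjusted 1.0, 8 arrays). Interactions of the other 7 genes lay between -0.53 for Lum and 0.36 for Pou3f4.

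**Figure D3:**
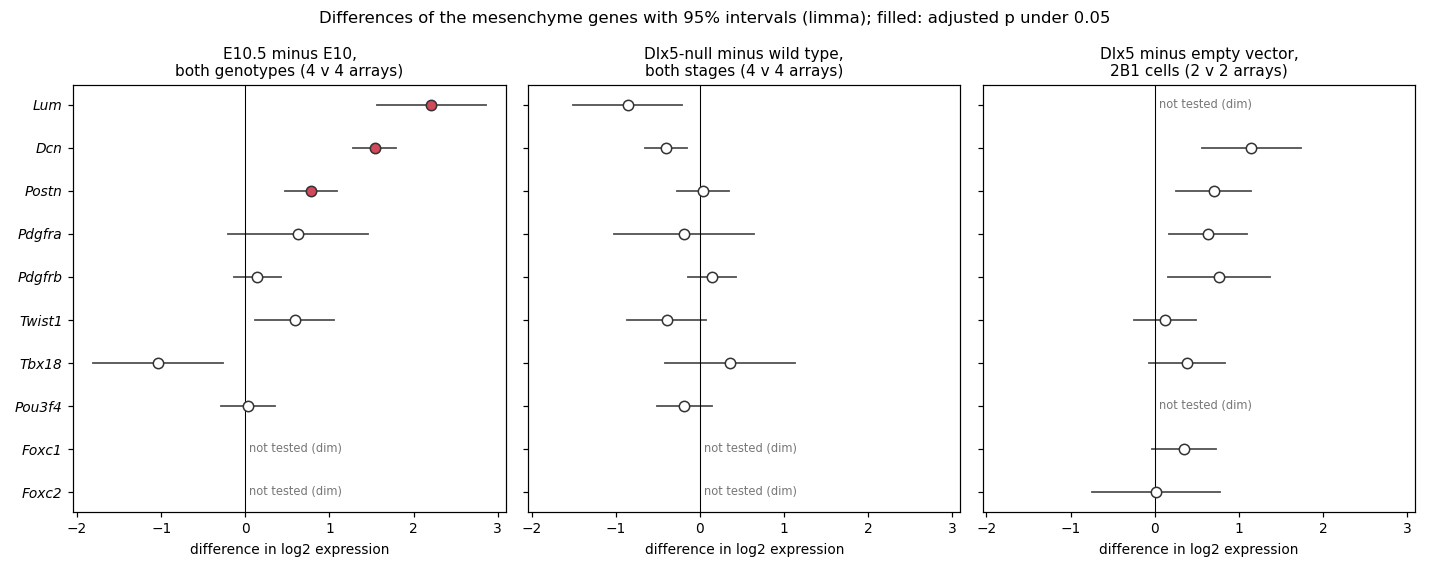
Difference in log2 level with its 95% interval from limma (horizontal axis) for each gene (rows) between stages, between genotypes and between transfections, with points filled where the adjusted p was under 0.05. Filled points are Lum at 2.21, Dcn at 1.54 and Postn at 0.78 between stages, and no point is filled in the genotype or transfection panel.

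In 2B1 cells all 8 tested genes had higher means with Dlx5 than with the vector, as had 56.7% of all genes, and none was called. The matrix genes Dcn and Postn and the PDGF receptors had the largest differences. Lum, with a mean of 4.10, and Pou3f4, with 4.26, were under the brightness filter of 4.85 here, while Foxc1 passed and Foxc2 lay at its edge. Of the 8 genes 0 were called, beside 0% of all 13647 genes tested. An unadjusted limma p under 0.05 in the higher direction was met by 4 of 8, beside 9.71% of all genes. In 7 of 8 the groups did not overlap, all higher with Dlx5, as was so for 29.6% of all genes. The median difference was 0.51, against 0.045 over all genes.

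Dcn read 7.48 and 7.33 with Dlx5 and 5.87 and 6.64 with the vector. Its difference was 1.15 (SE 0.25, 2 against 2 arrays, limma adjusted p = 0.377, unadjusted 0.00205), a 2.22-fold difference. Vector replicate 1 was the lowest of the 4, and without it the difference was 0.77. The second Dcn probe set read 4.52 and 4.60 with Dlx5 and 4.69 and 4.64 with the vector, lower with Dlx5 by 0.11 in the mean.

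Postn read 7.70 and 7.73 with Dlx5 and 6.79 and 7.24 with the vector, a difference of 0.70 (SE 0.19, 2 against 2 arrays, limma adjusted p = 0.377). Again vector replicate 1 was lowest, and without it the difference was 0.48.

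Pdgfra on its brightest probe set in these cells, 1438946_at, read 8.42 and 8.01 with Dlx5 and 7.45 and 7.72 with the vector, a difference of 0.63 (SE 0.20, 2 against 2 arrays, limma adjusted p = 0.377). Its other probe sets differed in sign. Set 1421917_at read 7.39 and 7.27 against 6.73 and 6.97, a difference of 0.48, and set 1421916_at read 4.41 and 4.48 against 5.02 and 4.23, a difference of -0.18. Pdgfrb on set 1436970_a_at read 8.83 and 8.96 with Dlx5 and 7.72 and 8.54 with the vector, a difference of 0.77 (SE 0.26, 2 against 2 arrays, limma adjusted p = 0.377). Without vector replicate 1 this was 0.36. On set 1417148_at it read 6.38 and 6.44 against 6.39 and 6.44, with no separation of the groups.

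Of the transcription factors, Twist1 read 9.77 and 9.73 with Dlx5 and 9.58 and 9.68 with the vector, a difference of 0.12 (SE 0.16) that was 0.07 without vector replicate 1. Tbx18 read 7.34 and 7.25 against 6.69 and 7.14, a difference of 0.38 (SE 0.19) that was 0.16 without vector replicate 1, and its second probe set read 5.40 and 5.08 against 4.62 and 5.05. Foxc1 read 5.25 and 5.42 against 4.93 and 5.05, a difference of 0.35 (SE 0.16), while its second probe set read 4.14 and 4.03 against 4.06 and 4.13. Groups of the main sets of these 3 genes did not overlap, yet each difference was short of the threshold, with limma adjusted p-values of 0.750, 0.419 and 0.401. Foxc2 read 4.92 and 4.79 with Dlx5 and 4.28 and 5.40 with the vector, and the vector arrays lay on either side of the Dlx5 arrays. Its difference was 0.015 over the 4 arrays and -0.55 without vector replicate 1. Lum read 4.13 and 4.17 against 3.91 and 4.20. Pou3f4, also untested here, read 4.16 and 4.20 against 4.38 and 4.31, lower with Dlx5 (difference -0.165).

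The calls in 2B1 cells changed with the vector array left out. Without vector replicate 2, so with replicate 1 as the lone vector array, Dcn, Postn and Pdgfrb were called (limma adjusted p = 0.0497 each, with differences of 1.54, 0.93 and 1.18), and so were 1742 of all genes. Without vector replicate 1 none was called, and over the 4 arrays left out in turn the limma adjusted p of Dcn ranged from 0.0497 to 0.862. In both cases the lone vector array was assumed to vary like the other group. The part that the array of vector replicate 1, with its narrower spread of values, played in these differences was not tested beyond this.

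**Figure D4:**
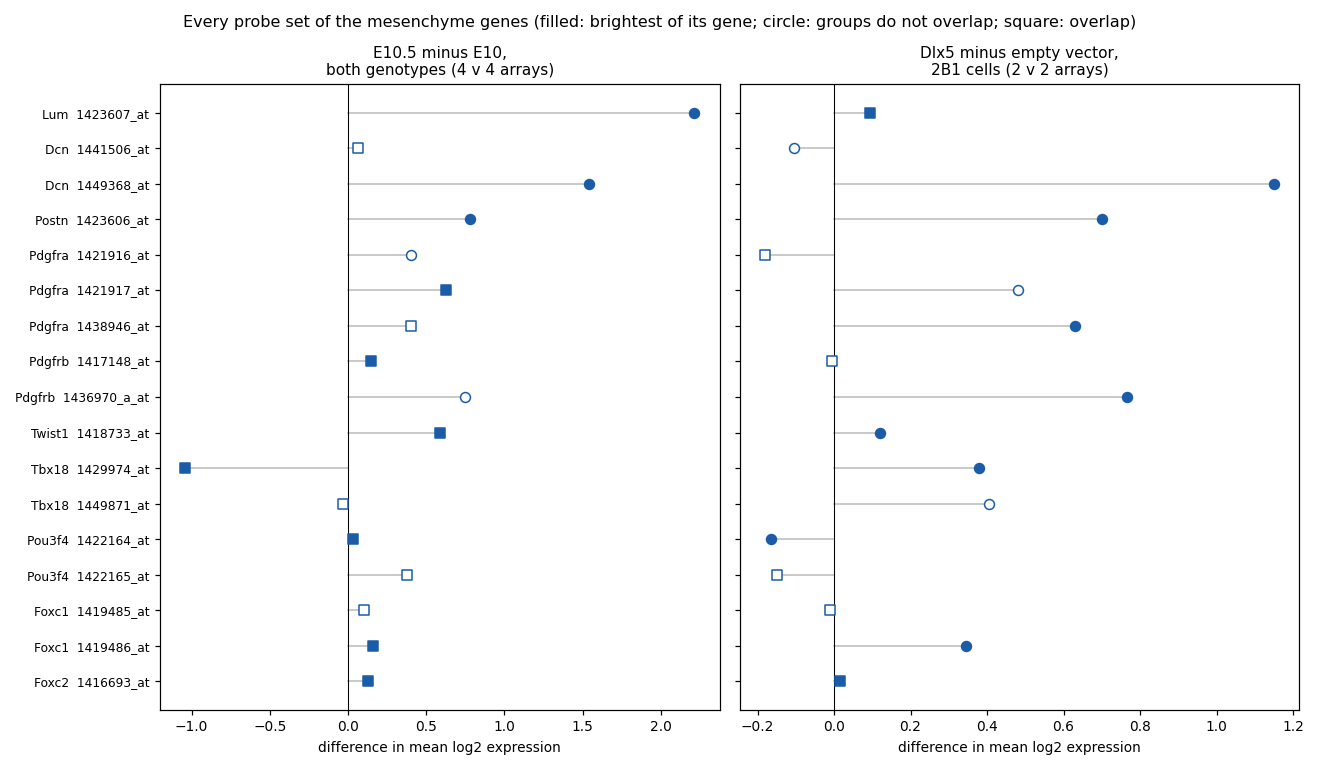
Difference in mean log2 level (horizontal axis, its own range in each panel) for all 17 probe sets (rows) between stages in vesicles and between transfections in 2B1 cells; filled symbols are the brightest set of a gene, circles mark groups that did not overlap and squares groups that did. Sets of 1 gene diverge, as for Dcn in 2B1 cells, at 1.15 and -0.11.

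The genes related to the 10 were read from lists chosen by name. Among the small leucine-rich proteoglycans, the family of Lum and Dcn, 4 of 7 tested members rose between stages over both genotypes, beside the 9.28% of all genes called higher. Besides Lum and Dcn these were Bgn (biglycan, 1.09, SE 0.23, limma adjusted p = 0.0195) and Prelp (1.07, SE 0.26, limma adjusted p = 0.0307). The median over the 7 was 1.07. Bgn lost its call with any of the 4 E10.5 arrays left out, and its difference was 0.65, still called, without both E10 replicate 1 arrays. Prelp lost its call without E10 replicate 1 of either genotype, either E10.5 wild-type array or replicate 1 of the labelled null at E10.5, and with both E10 replicate 1 arrays left out it was 0.67 (limma adjusted p = 0.0838). In 2B1 cells the family had 0 of 6 called, with 4 higher and 2 lower with Dlx5. The 4 higher genes were Dcn (1.15), Ogn (osteoglycin, 1.12), Prelp (0.91) and Fmod (fibromodulin, 0.78). All 4 had an unadjusted limma p under 0.05, beside 9.71% of all genes in that direction.

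Among 19 tested genes of related mesenchyme, which included collagens and other transcription factors, 5 rose between stages and 0 fell, beside 9.28% of all genes called higher and 6.54% called lower. These were the fibrillar collagens Col3a1 (1.15), Col1a1 (0.90), Col1a2 (0.67) and Col5a2 (0.58), and Snai1 (0.44), a factor of epithelial to mesenchymal transition. The median over the 19 was 0.15. Col1a2 lost its call only without E10.5 wild-type replicate 1, and Col1a1 only without either E10.5 wild-type array. Col3a1 and Col5a2 lost theirs without any 1 of the 4 E10.5 arrays and without E10 wild-type replicate 1, and Col3a1 also without E10 labelled-null replicate 1. Snai1 kept its call in 1 of 8 such runs, that without E10 labelled-null replicate 2. With both E10 replicate 1 arrays left out all 5 were called, Col3a1 at 0.59.

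In the PDGF pathway 1 of 6 tested genes rose between stages, where 15.8% of all genes were called and 9.28% called higher, so this share is near the background. This was Pdgfrl, a receptor-like protein without a kinase (1.13, SE 0.15, limma adjusted p = 0.00485), and its call held with each of the 8 arrays left out. The ligand gene Pdgfa had a difference of 0.61 (SE 0.18, limma adjusted p = 0.0524), Pdgfd of 0.54 and Pdgfc of 0.28, none past the threshold. In the POU3 family 0 of 4 were called, Pou3f3 having a difference of 1.68 (SE 0.57, limma adjusted p = 0.0790). Of 9 relatives of Tbx18 and Foxc, 1 was called, in the lower direction, beside 15.8% of all genes called and 6.54% called lower. This was Foxl2, which fell by 0.61 (SE 0.13, limma adjusted p = 0.0205) and lost its call with any of the 4 E10.5 arrays left out. Of 9 partners and relatives of Twist1, 2 fell, beside 6.54% of all genes called lower. These were the E-protein genes Tcf12 (by 0.50) and Tcf4 (by 0.46). Both of these lost their calls with any of the 4 E10.5 arrays left out, and Tcf12 also without E10 labelled-null replicate 1. No member of these lists was called between genotypes or in 2B1 cells. Of the 19 related mesenchyme genes, 15 were lower in the labelled null over both stages, beside 52.7% of all genes. Cdh11 (-0.52) and Prrx2 (-0.30) had an unadjusted limma p under 0.05 there, beside 2.84% in the lower direction. In 2B1 cells 14 of 20 were higher with Dlx5 and 6 lower. Higher with such a p were Col3a1 (1.06) and Mest (0.475), beside 9.71% of all genes. Lower were Col1a1 (-0.515) and Zeb2 (-0.455), beside 435 of 13647.

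**Figure D5:**
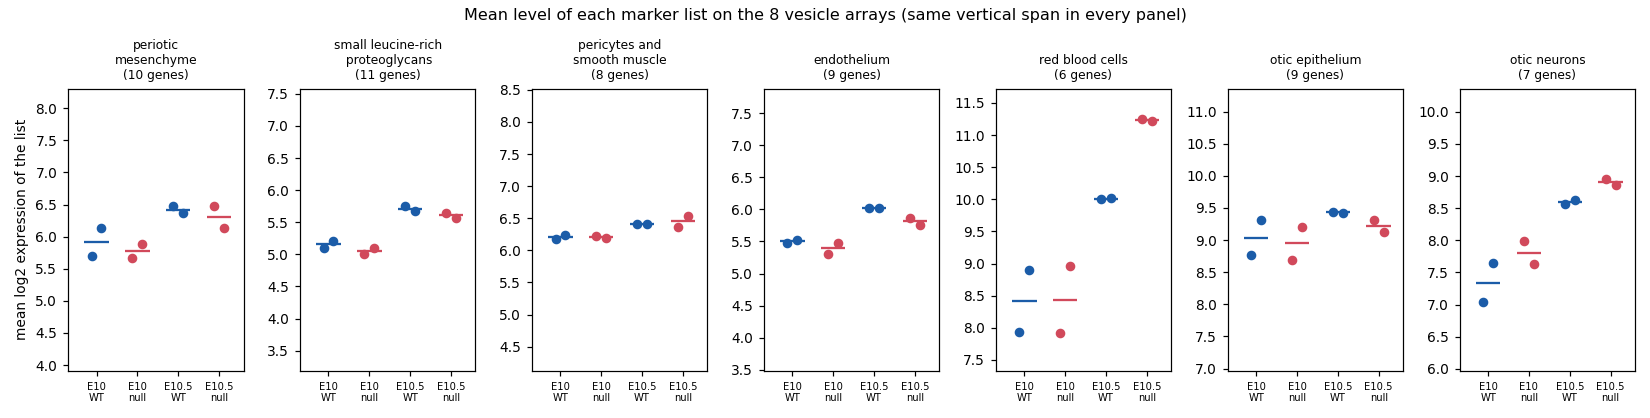
Mean log2 level of 7 marker lists (vertical axis, the same span in every panel) on each of the 8 vesicle arrays, with a bar at each group mean. The mean of the 10 mesenchyme genes was 5.67 to 6.14 at E10 and 6.14 to 6.48 at E10.5, and the red blood cell list lay at 7.92 to 8.96 at E10 and 10.00 to 11.25 at E10.5.

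Markers of several other cell types moved with stage as well. All 6 measured red blood cell genes rose (median difference 2.15), and their summed log2 level was 47.5 to 53.7 at E10, 60.0 to 60.1 in E10.5 wild type and 67.3 to 67.5 in E10.5 labelled null. Of the 6, Hemgn lost its call without replicate 2 of the labelled null at E10.5. Counts of markers that rose stand beside the 9.28% of all genes called higher in this comparison, and counts that fell beside 6.54% called lower. Of 7 tested endothelial genes 3 rose, Tie1 (1.49), Pecam1 (0.97) and Cldn5 (0.47), and the summed level of the 9 on the array was 47.8 to 49.7 at E10 and 51.8 to 54.2 at E10.5. Of 6 tested genes of pericytes and smooth muscle 2 rose, Cspg4 (1.00) and Notch3 (0.83), while Acta2 had a difference of -0.50 that did not pass. The summed level of the 8 on the array was 49.4 to 49.9 at E10 and 51.0 to 52.2 at E10.5. Cspg4 was called with each of the 8 arrays left out. Cldn5 and Notch3 lost their calls without any 1 of the 4 E10.5 arrays and without E10 labelled-null replicate 1, Cldn5 also without E10 wild-type replicate 2, and Notch3 also without E10 wild-type replicate 1. Without both E10 replicate 1 arrays Notch3 was 0.45 and not called (limma adjusted p = 0.0514).

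Of 7 otic neuron markers 5 rose (Stmn2, Tubb3, Isl1, Pou4f1 and Elavl4) and 1 fell (Neurod1). Of 9 otic epithelium markers 3 rose (Oc90, Fbxo2 and Sox10) and 2 fell (Pax8 and Eya1). Stmn2, Tubb3, Isl1, Pou4f1 and Pax8 were called with each of the 8 arrays left out. Neurod1 lost its call in 7 of the 8 runs, Fbxo2, Sox10 and Eya1 in 6 each, all 4 E10.5 arrays among them, Elavl4 without any 1 of the 4 E10.5 arrays, and Oc90 without either E10.5 wild-type array. Without both E10 replicate 1 arrays the difference of Fbxo2 went from 1.11 to 0.61, that of Sox10 from 0.69 to 0.38 and that of Oc90 from 1.59 to 1.03, all still called, and that of Neurod1 from -0.76 to -0.42, no longer called (limma adjusted p = 0.0506). The epithelial list's summed level was 78.3 to 83.8 at E10 and 82.2 to 85.0 at E10.5. Markers of several cell types thus moved with stage beside the matrix genes, and the part of vessels, blood and pericytes in the rise of Lum, Dcn and Postn was not tested. No marker of neural crest and glia, white blood cells, surface ectoderm or skeletal muscle was called between stages.

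Across the 8 vesicle arrays the mean of the 10 genes was 5.69 and 6.14 in E10 wild type, 5.67 and 5.89 in E10 labelled null, 6.47 and 6.37 in E10.5 wild type and 6.48 and 6.14 in E10.5 labelled null. Replicate 1 was the lower array in both E10 groups. The 5 genes with the most similar pattern over these 8 arrays, by Pearson correlation with that mean, were Echs1, Vps18, Tm2d2, Ptbp1 and Trpc4ap, with r from 0.987 to 0.991. The same E10 replicate 1 arrays were the lowest for each of these 5 genes, as for Echs1, which read 10.30 and 10.34 there and 10.75 to 11.39 on the other 6. Such a correlation over 8 arrays shares the arrays and their spread, and it is given as a description.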

How the data were processed

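Each of 12 RNA samples was read on 1 Affymetrix array. The authors deposited log2 values of 45101 probe sets, made with RMA and Affymetrix Expression Console per the submitters' processing notes (no versions named). Differences of dim probe sets are compressed by RMA. Detection calls were not used, so how far a signal lay above background is unknown. Groups came from the sample titles.

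The platform annotation gave 34958 probe sets a single gene, 932 more than 1 and 9211 no gene. Each gene was read from its brightest probe set over the arrays of a fit, and the lowest 25% of genes were left out. Tests used limma 3.58.1 and R 4.3.3 (lmFit, eBayes, Benjamini-Hochberg, threshold 0.05). Stage and genotype were fitted together over 8 arrays (5 residual degrees of freedom), contrasts within a stage or genotype came from group means (4), and 2B1 cells were fitted apart (2). Contrasts within vesicles share arrays. Fits were tested on simulated data with independent noise on each array, which holds no deviation shared between arrays. The p-values measure the spread between 2 pools or cultures a group.

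Named genes were the 10 members with every probe set, listed genes past the threshold with up to 4 others by size, and the 5 genes most correlated with the members' mean. Members and lists were chosen with earlier results of these data known. Replicate numbers were checked for pairing by correlating deviations from group means. Of the 5 pairs of groups 4 had a correlation under 0.1 (-0.374 to 0.067), and wild type and labelled null at E10 had 0.707. Numbers were not taken to pair arrays in the main fit, so a deviation shared by same-numbered E10 arrays was not modelled there. In the E10 genotype contrast a replicate block took the genes with an unadjusted limma p under 0.05 from 451 to 1641, with 0 called. Alternatives tried were each probe set singly, the mean of a gene's probe sets, other brightness filters, quantile normalization, an intensity trend, a replicate block, arrays left out and only the 4 arrays compared.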

Additional observations from a re-analysis of the deposited data

Results flagged for a closer look

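The difference between labelled-null and wild-type vesicles in Postn went in opposite directions at the 2 stages. Both labelled-null arrays lay under both wild-type arrays at E10 and above them at E10.5. Of all genes, 8.93% separated in the lower direction at E10 and 16.9% in the higher direction at E10.5. For Postn the difference between the stage-wise differences was 0.50 (SE 0.22). The test of this difference itself, limma's interaction contrast, had an unadjusted p of 0.0599 and an adjusted p of 1.0 over all genes.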

How the results depend on the processing

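Over both genotypes 3 members were called between stages. The count was 1 with the lowest 50% of genes left out, which leaves Dcn and Postn untested, 6 with a replicate block, 4 with an intensity trend (Tbx18 beside the 3), and 3 to 4 with an array left out. Within wild type it was 2, against 1 with the lowest 50% left out, 5 with the replicate block, 0 with only the 4 arrays compared and 0 to 2 with an array left out. Within the labelled null it was 0, against 1 with every probe set tested singly, 2 with quantile normalization, 1 with an intensity trend, 5 with the replicate block, 3 without both E10 replicate 1 arrays and 0 to 2 with an array left out. In 2B1 cells it was 0, against 2 with the replicate block, 1 with a crossed replicate block chosen after seeing the data, and 0 to 3 with an array left out. The labelled-null comparisons and the interaction had 0 members called under every alternative run. Where not stated, the cause was not tested.

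No called difference of a member changed sign. Of the differences of single members under alternatives, 835 kept their side of the threshold and their direction, 30 passed it, 12 no longer did, and 47 differences that were not called changed sign. Over all genes the calls between stages ranged from 463 to 5257 (main 2158), within wild type from 0 to 4098 (296), within the labelled null from 0 to 2279 (3) and in 2B1 cells from 0 to 1742 (0). Groups of 2 arrays and unknown signal over background limit all values, above all for the dim Foxc1, Foxc2 and second probe sets.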
